A study of Schizosaccharomyces pombe with 2 samples.

Results

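The genes described here are those of the ppk family and of other kinases of growth in fission yeast (Schizosaccharomyces pombe). They are the genes whose standard name is ppk followed by a number, 22 in all, and 15 kinases known by other names: pom1, cdr1, cdr2, ssp1, ssp2, orb6, shk1, pck1, pck2, pka1, hal4, kin1, cki1, cki2 and cki3. These 37 genes were set by a rule on names that uses no measured value, with earlier results of these data known. They stand among 5113 protein-coding genes and 5289 features in all. Poly(A) sites were mapped with 3' READS, a method that reads RNA next to its poly(A) tail, and each read marks a position of cleavage. There are 2 libraries, replicates A and B, from wild-type cells labelled FWP9 in exponential growth at 30 °C in YPD, a rich medium. They form 1 group, so the comparisons are between genes, and the labels do not say whether the libraries came from separate cultures.

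Protein kinases pass signals by adding phosphate to other proteins. In a rod-shaped cell such as fission yeast they set where the cell grows, how long it becomes before it divides, and how it answers to nutrients and to stress on its wall. Pom1 marks the cell ends and restrains Cdr2, which together with Cdr1 inhibits Wee1, the brake on mitosis. Orb6, Shk1 and Kin1 act in polarized growth, Shk1 as an effector of the GTPase Cdc42. Pck1 and Pck2, of the protein kinase C family, act on the cell wall. Pka1 answers to glucose, Ssp1 and Ssp2 to energy and stress, and Hal4 acts in the uptake of potassium ions. The ppk names were given in a systematic survey of kinases, and many of those genes are annotated only as kinases. The stretch between the stop codon and the poly(A) site is the 3' untranslated region (UTR) of the mRNA, which can carry elements for stability, localization or translation.

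The sequences that lead up to the sites the results turn on are given here for 16 sites of 12 genes. Each run ends with the base at which the reads ended and holds 30 bases, or for ppk26, whose site lies closer than that to the stop codon, the 22 bases from the first base after the stop codon. Capitals mark AATAAA, the canonical poly(A) signal, or any of its 18 single-base variants. The marked hexamer starts at least 10 nt upstream of the site, inside the run. At most a single hexamer is marked per run. Further matches stay in lower case, such as AATATA in ppk38 and AATAAT at the cki2 site at 350 nt. The sequences and coordinates are those of the RefSeq assembly ASM294v3. Its annotated coding sequences end where the deposited tables place the ends for all 5113 coding genes. In 5112 of them that end is a stop codon.
kin1, proximal site at 33 nt, chrII:2697847-2697876, plus strand: actATTAAAgctgcatacttttttgaaatt
kin1, distal site at 331 nt, chrII:2698145-2698174, plus strand: tagtctaatacgacgtttttgttgatactt
cki2, site at 196 nt, chrII:970761-970790, minus strand: gtatagcgtctttgagcgggtgcttaaatc
cki2, site at 288 nt, chrII:970669-970698, minus strand: taatcttttaatgttgctttcctttaacat
cki2, site at 350 nt, chrII:970607-970636, minus strand: tattgtagtaaatAATATAtacatacacat
cki1, site at 165 nt, chrII:4071546-4071575, minus strand: tcatttaattatacactttcttttcatttt
cki3, site at 364 nt, chrI:2783269-2783298, plus strand: atattattactccaatgcattatgcatcat
pom1, site at 278 nt, chrI:534184-534213, minus strand: tacttatagcaatactatgcataatttatt
cdr1, site at 295 nt, chrI:2679470-2679499, minus strand: tatatgtaactAATGAAtatcttctattac
orb6, site at 148 nt, chrI:1010279-1010308, plus strand: aactAATAATattaccaattactttttttt
hal4, site at 395 nt, chrI:5114109-5114138, minus strand: atttttaaagaattcttacATTAAAgcttt
ppk26, site at 22 nt, chrII:2765298-2765319, minus strand: AATAAAacatttttctttacag
ppk16, site at 96 nt, chrI:5007038-5007067, plus strand: gctttAATAAAgtgttctcttaaataattt
ppk38, site at 266 nt, chrIII:2394628-2394657, plus strand: taAATAAAaatatacattcattttgataac
ppk30, site at 325 nt, chrII:2630751-2630780, plus strand: tttatattataactttgttctttggccacc
ppk30, site at 356 nt, chrII:2630782-2630811, plus strand: atttgtaAATAAAaagaacttgtgctttct

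The windows, positions 1 to 400 after the stop codon of every feature, held 50974158 reads in replicate A and 54747354 in replicate B. The 37 kinase genes took 14969 of these reads in A and 15510 in B. A gene was called measured with at least 50 reads in each replicate, which 26 of the 37 kinase genes and 74.7% of all coding genes reached. Reads of 1 library are copies made by PCR and are not independent molecules, so intervals given below cover counting error only. The kinase genes were thinly covered, with medians of 363 reads in A and 279.5 in B over the 26, against 655 and 548.5 over the 3818 measured genes. Replicate mean positions of the same gene differed by over 10 nt in 11 of the 26 kinase genes, against 33.9% of all measured genes. At like depth the shares were closer: with 50 to under 300 reads in the shallower library it was 9 of 18 kinase genes against 55.0% of all, and with 300 or more it was 2 of 8 against 22.2%.

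Over both libraries together the gene with most reads was cki2, which encodes a kinase of the casein kinase 1 family, with 3565 reads in A and 4817 in B (69.9 and 88.0 per 1000000 window reads). It was followed by ppk29, with 1725 and 1617 reads, by orb6, with 955 and 1437, and by ppk26, with 693 and 1112. In replicate A alone cki3, with 763 reads, and pom1, with 694, stood ahead of ppk26. At the other end cdr2, which encodes the mitotic inducer kinase restrained by Pom1, had 8 reads in A and 1 in B. The calmodulin-dependent kinase gene ssp1 had 1 and 2 reads. The gene of the AMP-activated kinase subunit, ssp2, had 0 and 2, and pka1 had 0 and 1. A count of 0 in A allows up to 3 reads, or 0.0589 per 1000000 window reads. All 4 of these genes have an annotated 3' end past the window, as do 6 of the 26 measured kinase genes (hal4, pck2, ppk25, ppk29, ppk30 and shk1) and 23.2% of all measured genes. It lies 795 nt after the stop codon in cdr2, 1638 nt in ssp1, 627 nt in ssp2 and 427 nt in pka1. Reads that end past position 400 are not in the tables, so low expression and a long 3' UTR cannot be told apart for them.

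**Figure D1:**
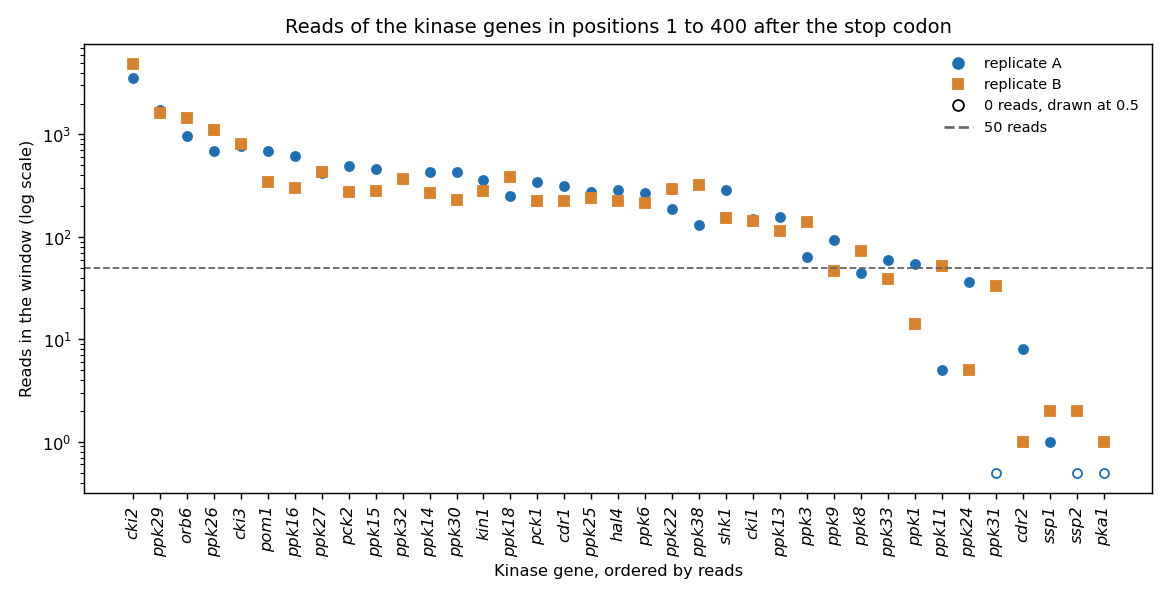
Reads in positions 1 to 400 after the stop codon (log axis) for each of the 37 kinase genes, with replicate A as blue circles and replicate B as orange squares; open symbols are counts of 0. The 26 genes with both symbols at or above the dashed line at 50 reads were measured, and cdr2, ssp1, ssp2 and pka1 lie at the right with at most 8 reads.

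The other 7 genes that were not measured are ppk genes. For ppk31 all 33 reads of B lay at position 120, while A had 0 reads. For ppk11, which is annotated as a PAK-like kinase and has its annotated end 1024 nt after the stop codon, A had 5 reads and B had 52. Reads of ppk24 numbered 36 in A and 5 in B, and those of ppk1 numbered 54 and 14. In these 4 genes 1 library alone supplies most of the evidence. In ppk8 (44 and 72 reads), ppk9 (93 and 46) and ppk33 (60 and 39) both libraries contributed. The most used position of ppk8 was 241 nt in both libraries, whereas that of ppk9 was 191 nt in A and 301 nt in B and that of ppk33 285 nt in A and 375 nt in B.

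Over the 26 measured kinase genes the median of the mean positions was 161 nt, against 143 nt over all measured genes. The 26 positions ran from 24.9 nt (ppk26) to 383 nt (hal4). The mean position lay above the median of all measured genes in 18 of the 26, where 50% of all measured genes do by construction. It lay above 200 nt in 10 of them, against 31.6% of all, and above 300 nt in 4, against 9.35%. Of the kinases with names of their own all 11 measured ones lay above the median of all genes, and of the 15 measured ppk genes 7 did. The median position was 257 nt over the 11 and 116 nt over the 15. In each replicate alone 10 of the 11 lay above, because pck1 fell below in A and pck2 in B. With the median in place of the mean position of each gene's reads, 9 of the 11 lay above. This division of the genes was made after the values were seen, and it is a description with no test.

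**Figure D2:**
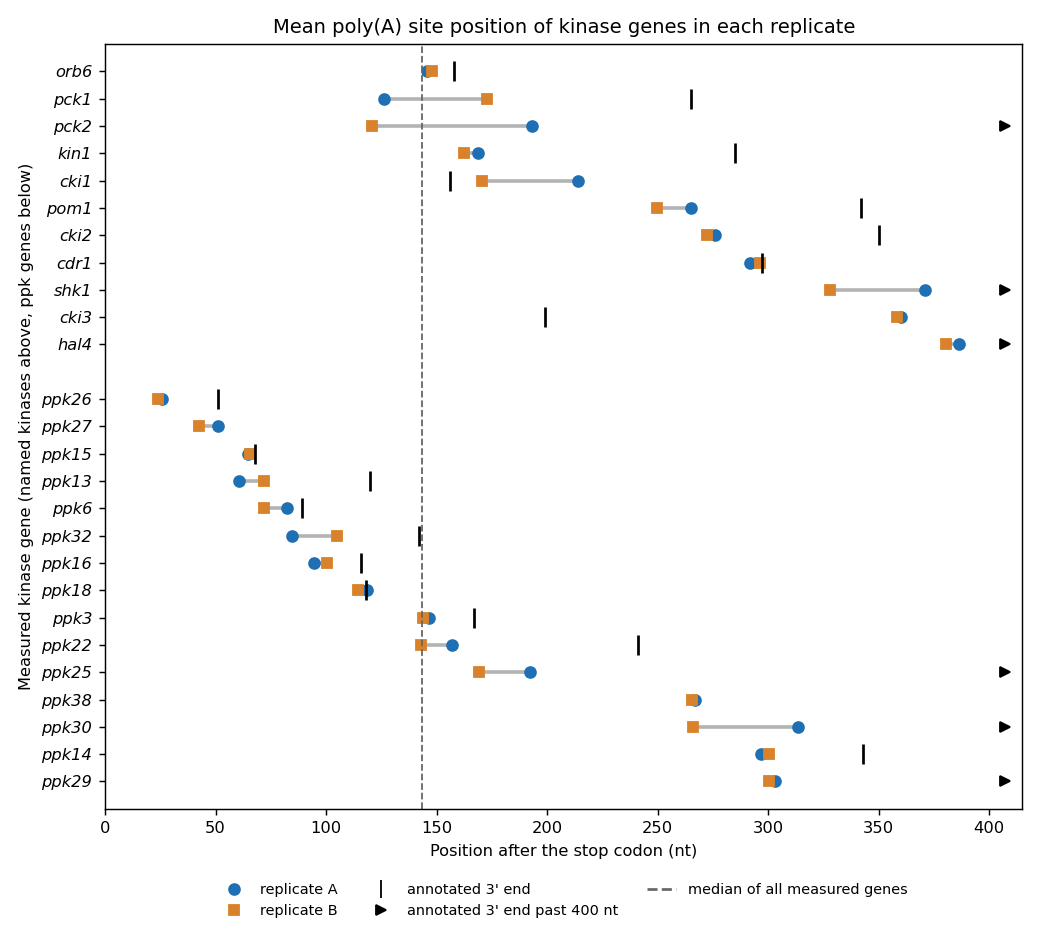
Mean poly(A) site position (nt after the stop codon) of the 26 measured kinase genes in replicate A (blue circles) and replicate B (orange squares), with the annotated 3' end as a black bar or, past 400 nt, an arrowhead. The dashed line is the median of all measured genes, 143 nt; only pck1 and pck2 of the named kinases have a replicate left of it, while 8 of the 15 ppk genes lie left of it by their mean.

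The room downstream also differed between the divisions. The median distance from the stop codon to the next coding sequence was 808 nt for the 11 named kinases, 350 nt for the 15 ppk genes and 496 nt for all measured genes. Among genes with that distance over 400 nt, 7 of 10 named kinases and 3 of 6 ppk genes lay above the median of such genes, 179 nt. The part of this distance in the positions was not tested. Of 58 other kinase genes found by name, such as the genes of the mitotic, checkpoint and stress kinases, 40 were measured. Their median position was 216 nt, and 26 of the 40 lay above the median of all genes. Of 34 partner and regulator genes of these kinases, such as those of polarity landmarks and the cyclic AMP pathway, 20 were measured. Their median position was 190 nt, with 14 of the 20 above. These lists were drawn up with earlier results of these data known.

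**Figure D3:**
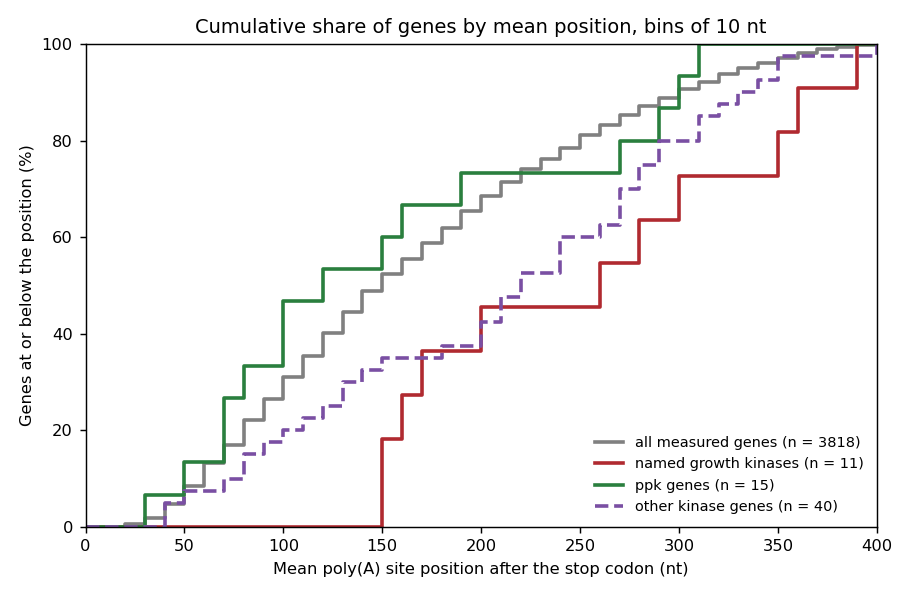
Share of genes (%) at or below a mean position (nt after the stop codon), counted in bins of 10 nt, for all 3818 measured genes (grey), the 11 named growth kinases (red), the 15 ppk genes (green) and 40 other kinase genes (dashed purple). The first genes of the red line fall in the bin that starts at 140 nt, close to where the grey line reaches 50%. Each bin is drawn at its upper end.

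Among the kinases of cell size, pom1 (SPAC2F7.03c) ended in 2 neighbouring zones. It had 694 reads in A and 343 in B, with mean positions of 265 and 250 nt (257 ± 10.7 nt, SD, n = 2). The most used site lay at 278 nt in both libraries and held 33.6 ± 0.954% of the reads (SD, n = 2). With positions under 1% of the reads left aside, a zone from 278 to 301 nt held 511 reads in A and 194 in B, and a zone from 193 to 249 nt held 183 and 145. Without the 1% limit the zones join into 1 cluster, from 193 to 301 nt. The distal zone had the majority in each library, and the annotated end of pom1 lies farther out, at 342 nt.

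The other gene of that group that was measured, cdr1 (SPAC644.06c), ended almost at a point. Its reads numbered 316 and 225, its mean positions were 292 and 296 nt, and the site at 295 nt held 83.6 ± 2.59% of them (SD, n = 2). The annotated end lies at 297 nt, so the site and the annotation differed by 2 nt. For cdr2 the 8 reads of A lay at 92 nt and the single read of B at 89 nt.

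Among the kinases of polarity, orb6 (SPAC821.12), which encodes an NDR-family kinase, was also narrow. Its mean position was 146 nt in A and 148 nt in B (147 ± 1.48 nt, SD, n = 2), and its site at 148 nt held 794 of 955 reads in A and 1384 of 1437 in B. The width, taken as the span that leaves out the outer 10% of the reads on each side, was 3 nt in A and 0 nt in B. The PAK-family kinase gene shk1 (SPBC1604.14c) ended near the edge of the window. It had 285 and 151 reads with mean positions of 371 and 328 nt, and 75.8% of the reads in A (95% Wilson interval 70.5% to 80.4%) and 46.4% in B (38.6% to 54.3%) lay in its last 20 positions. Its annotated end is outside the window, at 535 nt, so ends beyond position 400, if any, are not in its mean.

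The gene kin1 (SPBC4F6.06), which encodes the MARK/PAR-1 kinase, had ends far apart. It had 362 reads in A and 277 in B. A proximal cluster from 9 to 47 nt held 44.8% of the reads in A (95% Wilson interval 39.7% to 49.9%) and 54.2% in B (48.3% to 59.9%). A distal cluster from 278 to 360 nt held 44.8% in A (39.7% to 49.9%) and 45.8% in B (40.1% to 51.7%). The peaks of the clusters, at 33 and 331 nt, lie 298 nt apart. In this gene the mean position, 166 ± 4.71 nt (SD, n = 2), describes neither end: between the clusters, from 48 to 277 nt, lay 38 reads in A and 0 in B. Both clusters were used in both libraries. In the sequences above, the proximal site has ATTAAA starting 26 nt upstream, and the distal site has no hexamer of the set. The annotated end, at 285 nt, falls at the start of the distal cluster.

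The protein kinase C genes had the least repeatable profiles among the named kinases. For pck1 (SPAC17G8.14c) the 339 reads of A had a mean position of 126 nt and the 226 of B one of 173 nt. For pck2 (SPBC12D12.04c) the 486 reads of A had a mean of 193 nt and the 276 of B one of 121 nt. The order of the pair thus turned between the libraries, and the difference of their means, -7.30 nt (pck1 minus pck2), was smaller than its SD of 83.9 nt. Some positions had many reads in 1 library and none in the other. In pck2 position 223 held 126 reads in A and 0 in B, and position 29 held 0 reads in A and 81 in B. Counts of 0 allow a share of up to 1.09% in B and 0.617% in A. Such a position, with at least 10% of the reads in 1 library and none in the other, occurred in 10 of the 26 kinase genes and in 30.9% of all measured genes. The overlap of the profiles of A and B, summed over bins of 20 nt, came to 39.5% in pck2 and 55.0% in pck1, against a median of 85.9% over all measured genes. The site at 85 nt of pck2 was shared, with 68 and 72 reads. The annotated ends are at 265 nt in pck1 and, outside the window, at 661 nt in pck2.

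The 3 casein kinase 1 genes among those described here, cki1, cki2 and cki3, ended at different distances although they belong to 1 family. The mean positions were 192 ± 30.8 nt for cki1, 274 ± 2.52 nt for cki2 and 359 ± 1.27 nt for cki3 (SD, n = 2 for each). In replicate A they were 214, 276 and 360 nt, and in replicate B 171, 272 and 358 nt, so the order was the same in both. The difference between cki2 and cki3 was -85.0 ± 1.25 nt (SD, n = 2) and that between cki1 and cki2 -81.7 ± 28.3 nt. Each difference exceeded its spread between the libraries.

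The deepest profile of the kinase genes, that of cki2 (SPBP35G2.05c), had 3 zones, of which the middle one was the least used in both libraries. With positions under 1% of the reads left aside, the zone from 191 to 220 nt held 35.9% of the reads in A (95% Wilson interval 34.3% to 37.5%) and 38.8% in B (37.5% to 40.2%). The zone from 259 to 311 nt held 25.5% (24.1% to 27.0%) and 25.8% (24.6% to 27.1%). The third zone, from 350 to 358 nt, held 35.7% (34.1% to 37.2%) and 32.9% (31.6% to 34.2%). No zone moved by more than 3 points between the libraries. The most used position, 350 nt, is also the annotated end, and it is the only one of the 3 peaks with a hexamer of the set, with AATATA starting 16 nt upstream and 2 more of the set within 40 nt. Without the 1% limit scattered reads join the zones into 1 cluster.

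In cki3 (SPAC1805.05) 744 of 763 reads in A and 805 of 814 in B lay between 338 and 389 nt, with the most used position at 364 nt in both libraries. That position lies 165 nt past the annotated end, at 199 nt. It was the only gene with such a site over 10 nt past the annotation among the 18 measured kinase genes with a 3' end annotated inside the window, against 11.7% of such genes overall. The thinner cki1 (SPBC1347.06c), with 150 and 142 reads, had clusters around 97, 165 and 255 nt, which held means of 15.5 ± 5.93%, 52.0 ± 14.1% and 22.7 ± 14.1% of the reads (SD, n = 2). In cki1 the middle cluster led in both libraries, and its peak lies 9 nt past the annotated end.

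**Figure D4:**
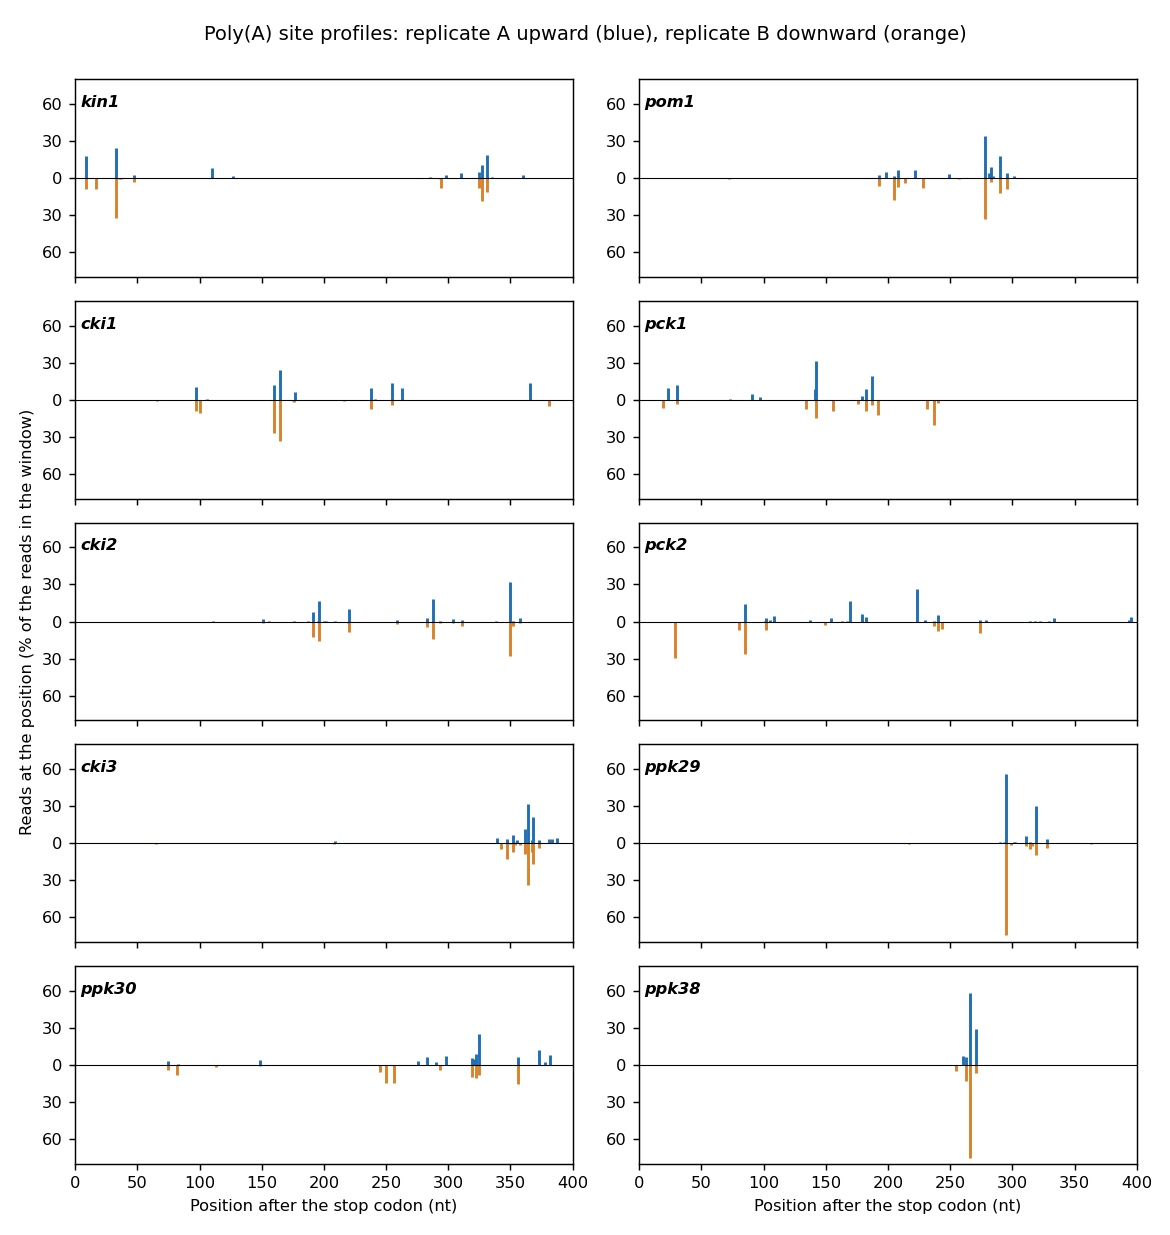
Share of a gene's reads (%) at each position after the stop codon (nt) for 10 kinase genes, with replicate A drawn upward in blue and replicate B downward in orange. The profiles of cki2 mirror each other in all 3 zones and kin1 has reads at both ends of the window, while pck2 has tall lines at 29, 169 and 223 nt in 1 replicate only.

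Of the kinases of nutrients and ions only hal4 (SPAC29A4.16) was measured. With 289 reads in A and 224 in B, its mean position was 387 nt and 380 nt, the largest of the 26 genes. The site at 395 nt held 171 and 108 of them, and 95.8% (95% Wilson interval 92.9% to 97.6%) and 89.3% (84.6% to 92.7%) lay in the last 20 positions. The annotated end lies at 591 nt. Like shk1, hal4 gathered its reads against the edge of the window. These 2 of the 26 genes had at least 10% of their reads in the last 20 positions in both libraries, against 4.01% of all measured genes.

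Among the ppk genes, ppk29, ppk30 and ppk38 are annotated as members of the Ark1/Prk1 family, kinases that in budding yeast act on the endocytic actin patch. All 3 ended far from the stop codon, at 302 ± 2.05 nt, 290 ± 33.6 nt and 266 ± 1.03 nt (SD, n = 2 for each). The site of ppk29 at 295 nt held 959 of 1725 reads in A and 1195 of 1617 in B. In ppk38 the site at 266 nt held 75 of 129 and 242 of 322 reads, 18 nt short of the start of the next gene on the same strand, mug170, at 284 nt. Both genes thus had 1 leading site in both libraries. The mean of ppk30 was 314 nt in A and 266 nt in B, the largest difference among the 15 measured ppk genes, and its leading position was 325 nt in A and 356 nt in B. Position 325 held 105 and 18 reads and position 356 held 28 and 36. In the sequences above the site at 325 nt has no hexamer of the set, and the one at 356 nt has AATAAA starting 22 nt upstream. Means of ppk29 and ppk38 differed by 35.5 ± 1.02 nt, and those of ppk29 and ppk30 by 11.8 ± 31.6 nt, less than the spread (SD, n = 2 for both).

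The shortest 3' UTR among the 26 genes was that of ppk26, which is annotated as a subunit of the PAN complex, a deadenylase that trims poly(A) tails. Its mean position was 25.7 nt in A and 24.1 nt in B, the site at 22 nt held 89.4 ± 5.21% of the reads (SD, n = 2), and the width was 0 nt in both. Only 0.891% of all measured genes had a smaller mean position. In its sequence above, AATAAA lies in the first 6 bases after the stop codon, 21 nt upstream of the site. Next came ppk27 with 46.7 ± 6.11 nt, ppk15 with 65.2 ± 0.798 nt, ppk13 with 66.2 ± 8.16 nt and ppk6 with 77.1 ± 7.13 nt (SD, n = 2 for each). In ppk15 the site at 65 nt held 443 of 462 reads in A and 251 of 282 in B, and the annotated end lies at 68 nt.

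Mean positions of middle distance belonged to ppk32 (94.8 ± 14.4 nt), ppk16 (97.3 ± 4.20 nt), ppk18 (116 ± 2.76 nt), ppk3 (145 ± 1.83 nt), ppk22 (150 ± 9.91 nt) and ppk25 (181 ± 16.4 nt; SD, n = 2 for each). In ppk32 and ppk25 the mean averages separated clusters, given below, and is not itself a site. The leading position of ppk32 was 138 nt in both libraries, and that of ppk25 was 216 nt in A and 120 nt in B. Position 399 of ppk25 held 7 reads in A and 29 in B, and its annotated end, at 493 nt, is outside the window. Of the genes of middle distance, ppk18 encodes a kinase of the Greatwall family, which restrains a phosphatase at mitosis. Its site at 119 nt held 167 of 251 and 238 of 386 reads and lies 1 nt past the annotated end. The wide profile of ppk22 had 186 reads in A and 290 in B, with mean positions of 157 and 143 nt and widths of 151 and 107 nt. Its site at 143 nt led in both libraries, with 70 and 92 reads, while position 75 held 37 reads in B and 0 in A, which allows a share of up to 1.61% there. A more distal end was that of ppk14, at 299 ± 2.41 nt, with 429 and 270 reads, where the leading position was 316 nt in A and 296 nt in B.

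Separated clusters of ends, each with at least 10% of the reads in both libraries and over 25 nt apart, occurred in 7 of the 26 kinase genes: cki1, kin1, pck2, ppk13, ppk25, ppk30 and ppk32. The share among all measured genes was 31.1%. The count depended on the rule: it was 12 in either replicate alone, and 3 with clusters joined up to 50 nt apart or with at least 20% of the reads per cluster. In ppk13 clusters at 10 to 62 nt and 89 to 104 nt held 54.3 ± 1.15% and 45.2 ± 0.525% of the reads (SD, n = 2). The zones of ppk13 were thus repeatable but their positions were not, since position 100 held 38 reads in A and 0 in B and position 53 held 0 in A and 22 in B. In ppk25 the balance turned: the cluster at 114 to 120 nt held 43 of 276 reads in A and 128 of 241 in B, and the one at 211 to 218 nt held 139 and 58. In ppk32 the cluster at 69 to 142 nt led in both libraries, with 214 of 364 and 285 of 369 reads, ahead of one at 8 to 36 nt with 149 and 81.

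Widths followed no single pattern. The median width of the 26 was 68.5 nt, against 62.5 nt over all measured genes, and 13 of the 26 were above that value, against 50% of all. The order of the medians depended on the library, with 32.5 nt against 59.5 nt in replicate A alone and 81 nt against 57 nt in replicate B alone. With at least 200 reads in each library the medians were 44 nt and 56 nt. The widest were kin1 (318 ± 5.66 nt), ppk25 (265.5 ± 99.7 nt), pck2 (219.5 ± 36.1 nt) and cki1 (203.5 ± 92.6 nt; SD, n = 2 for each). The narrowest were ppk26 (0 nt in both), orb6 (1.5 ± 2.12 nt), ppk15 (2 ± 2.83 nt) and ppk38 (5.5 ± 3.54 nt). The width exceeded 100 nt in both libraries in 9 of the 26, against 26.8% of all. Only kin1 among the 4 widest kept its width within 10 nt between libraries. The most used position held over 50% of the reads in both libraries in 8 of the 26 genes, against 32.1% of all: cdr1, orb6, ppk6, ppk15, ppk18, ppk26, ppk29 and ppk38. It was the same position in both libraries in 18 of the 26, against 72.4% of all.

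Poly(A) signals were searched on the transcribed strand as AATAAA or any hexamer that differs from it by 1 base. The hexamer had to begin between 10 and 40 nt before the most used position. Here and for the annotated ends below, that is the position with the largest share averaged over both libraries, which need not lead in each. In ppk13 that position, 104 nt, held 4 of 156 reads in A and 27 of 114 in B. Hexamers may overlap. The search found one in 17 of the 26 kinase genes, against 72.3% of all measured genes, and AATAAA itself in 3, ppk16, ppk26 and ppk38, against 20.8%. Over every position from 41 to 400 of all measured genes, 41.0% had a hexamer of the set in that range and 5.87% had AATAAA. None of the 11 named kinases had AATAAA there, while 6 of them had a variant, such as AATGAA in cdr1, AATAAT in orb6 and ATTAAA in hal4 and kin1. A match is a description of letters and does not show that a site depends on it.

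Most used positions lay within 10 nt of the annotated 3' end in 9 of the 18 measured kinase genes whose end is annotated inside the window, against 24.2% of such genes overall. These were cdr1, cki1, cki2, orb6, ppk3, ppk6, ppk15, ppk18 and ppk32. No 3' UTR is annotated for ppk27 and ppk38. Of the 13 measured kinase genes with a convergent neighbour, 0 had their most used position past the stop codon of that neighbour, against 6.87% of convergent genes overall. It lay past the annotated 3' end of the neighbour in 5 of the 13, hal4, ppk6, ppk16, ppk18 and ppk32, against 50.2%, so transcripts of these pairs overlap by annotation.

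Reads that ended inside the open reading frame (ORF) were common in a few ppk genes. They exceeded 10% of ORF and window reads in both libraries in 4 of the 26 genes, ppk3, ppk13, ppk27 and ppk32, against 4.45% of all measured genes. In ppk27 the ORF held 464 reads in A and 268 in B, beside 421 and 427 in the window, which made 52.4% (95% Wilson interval 49.1% to 55.7%) and 38.6% (35.0% to 42.2%). In ppk32 it held 199 and 152, beside 364 and 369. None of the 11 named kinases was among them, but cki1 passed 10% in A alone. Its shares were 10.2% in A (95% Wilson interval 6.45% to 15.7%) and 7.19% in B (4.06% to 12.4%). Those of hal4 were 3.02% and 8.94%, and those of pom1 0.430% and 7.30%. In orb6, with 45 and 73 ORF reads, the shares were 4.50% (95% Wilson interval 3.38% to 5.97%) and 4.83% (3.86% to 6.04%).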

How the data were processed

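Each replicate has a deposited table, and a further table by the authors merges both. The submitters' processing notes name Bowtie; its version, settings, treatment of multiply matching reads and genome build were not given in the sources used here. The deposited signal values (reads in the window, at the highest position and in the ORF) are scaled by the authors: small values were whole multiples of 0.930 in replicate A and of 0.869 in B, with 100% of values up to 100 reads whole within 0.1. Signals were divided by the step, and the deposited level at each position, a percent of the highest, was turned into reads. The mean position, the width, the clusters (positions with reads joined where at most 25 nt apart) and hexamers were computed with Python 3.11.15 and NumPy 2.4.6, and intervals with SciPy 1.17.1. Means differed from the deposited weighted average by at most 0.0950 nt. The scripts were tested on simulated data. Features were matched to RefSeq (ASM294v3) by name. With 1 group there was no test. The kinase genes named in full were all measured named kinases and, of the ppk genes, those with the 4 smallest and 4 largest positions, the 3 narrowest and 3 widest, those with separated clusters and the 4 with the largest difference between replicates; others are given by their mean. The genes and lists were chosen with earlier results of these data known. Of the list names, ran1 and nha1 were not found. Alternatives covered the read minimum, single replicates, the merged table, median positions, positions 1 to 300, annotated ends, neighbours, and the cluster and hexamer rules.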

Additional observations from a re-analysis of the deposited data

How the results depend on the processing

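No paired analysis was possible because the samples form 1 group. The median position of the kinase genes, 161 nt, ranged from 166 to 181 nt in single replicates. It was 198 nt with at least 1 read in each replicate, a setting of 34 kinase genes. That setting adds genes with very few reads, such as ssp1 with 1 and 2, and its median over all genes is not given here. With positions 1 to 300 the kinase median was 150 nt, against 130 nt over all genes. Without the genes annotated to end past the window it was 148 nt, against 130 nt over all genes. That setting holds 20 kinase genes, of which ppk27 and ppk38 have no annotated 3' UTR. The kinase median was 225 nt, against 179 nt over all genes, with the next coding gene over 400 nt away (16 genes). It was 192 nt without genes that have a same-strand gene start in the window, a setting chosen after seeing the data, where the median of all genes was 161 nt. The count above the median of all genes went from 18 of 26 to 10 of 16 with the next gene over 400 nt away. The counts for named kinases and ppk genes apart were also added after seeing the data. Named kinases went from 11 of 11 to 7 of 10 with that neighbour, and 10 of 11 in either replicate. The ppk genes went from 7 of 15 to 4 of 11 at 200 reads, 4 of 12 without annotated ends past the window (ppk27 and ppk38 included) and 3 of 6 with the next gene over 400 nt away. Fewer genes enter those settings. The median width, 68.5 nt, was 32.5 to 81 nt in single replicates. Genes with separated clusters, 7, numbered 12 in either replicate alone, 3 with clusters joined up to 50 nt apart, 3 with at least 20% per cluster and 9 with positions over 1% of the reads. Genes with a hexamer, 17, numbered 16 in replicate A alone, 19 in replicate B alone and 3 with AATAAA as the only hexamer. Genes with reads at the window edge, 2, numbered 4 over the last 50 positions and 3 in single replicates. Genes whose replicates differed by over 10 nt, 11, numbered 7 at 20 nt. At 200 reads the median of the other kinase genes was 231 nt and that of partner genes 173 nt. Median and mean positions of a gene differed by up to 94.0 nt, in kin1. Replicates and depth limit all values of genes with few reads.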
